A study of Mus musculus with 12 samples.

Results

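The 9 genes described here encode proteins that neutrophils store in their secondary (specific) and gelatinase granules or release on activation, namely Ltf, Lcn2, Camp, Ngp, Mmp8, Mmp9, Cd177, Retnlg and the chitinase-like Chil3. They were taken by name from 31272 gene names measured in cells sorted as hematopoietic stem cells (HSCs). Chil3, Ltf and Lcn2 were chosen by their measured levels, which differ strongly between the groups, so their values are given as a description with no test. The other 6 complete the set of granule genes and were tested. Every cell came from the bone marrow of wild-type (WT) mice, which the study's methods give as C57BL/6, and 4 groups of 3 libraries each were made. Ctrl is the control group, IR received ionizing radiation, and Ab_IR and L_IR are a pair of irradiated groups whose prefixes the labels do not spell out, so what Ab and L stand for is not known here. The protocol shared by all samples puts the sort at 3 days after IR, while dose, age and sex are not in the labels. The methods define HSCs as Lineage-Sca-1+c-Kit+Flt3-CD34- cells, with Gr-1 and Mac-1 among the excluded lineage antigens, so mature neutrophils should be gated out. The labels do not say that the libraries of a group came from separate animals, so p-values measure the spread between these samples, which may be technical.

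Neutrophil granules are filled in sequence as the cell matures. Primary granules with myeloperoxidase and the serine proteases form in promyelocytes, secondary granules with lactoferrin, lipocalin 2 and cathelicidin form in myelocytes and metamyelocytes, and gelatinase granules with MMP9 form last. Transcription of the secondary granule genes depends on C/EBP factors, C/EBPε above all, and on PU.1, so these transcripts mark maturing neutrophil precursors rather than HSCs.

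The sequences just before the gene starts are shown because most of these genes changed in the same direction, and because Chil3 has a near-identical neighbor, Chil4, which is listed near 0. All were taken from RefSeq promoter windows on GRCm38.p6, are written 5′ to 3′ on the strand of the gene, and end before the first base of any GENCODE M21 transcript of that gene. Capitals mark every match to TTNNGNAA or its reverse complement TTNCNNAA, letters that fit the site bound by C/EBP factors.
Chil3, chr3:106167565-106167814, minus strand: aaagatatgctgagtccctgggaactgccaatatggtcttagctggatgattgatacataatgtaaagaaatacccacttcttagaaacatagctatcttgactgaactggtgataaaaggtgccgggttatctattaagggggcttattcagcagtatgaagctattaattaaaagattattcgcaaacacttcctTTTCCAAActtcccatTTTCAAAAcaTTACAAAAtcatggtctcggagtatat
Chil4, chr3:106219508-106219729, minus strand: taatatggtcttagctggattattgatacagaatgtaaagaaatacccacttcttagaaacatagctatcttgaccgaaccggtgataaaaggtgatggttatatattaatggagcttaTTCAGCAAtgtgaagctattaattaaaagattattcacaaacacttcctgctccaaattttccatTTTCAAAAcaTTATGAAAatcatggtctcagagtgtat
Ltf, chr9:111019042-111019270, plus strand: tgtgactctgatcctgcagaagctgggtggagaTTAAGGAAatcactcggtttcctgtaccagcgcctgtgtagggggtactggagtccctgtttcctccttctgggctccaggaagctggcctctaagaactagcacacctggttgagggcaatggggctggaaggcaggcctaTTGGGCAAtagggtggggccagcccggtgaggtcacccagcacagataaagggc
Ngp, chr9:110419558-110419746, plus strand: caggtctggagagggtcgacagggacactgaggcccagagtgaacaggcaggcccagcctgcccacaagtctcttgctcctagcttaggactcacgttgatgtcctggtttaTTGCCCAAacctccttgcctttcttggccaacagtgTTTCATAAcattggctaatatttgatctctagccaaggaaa
Mmp8, chr9:7558179-7558428, plus strand: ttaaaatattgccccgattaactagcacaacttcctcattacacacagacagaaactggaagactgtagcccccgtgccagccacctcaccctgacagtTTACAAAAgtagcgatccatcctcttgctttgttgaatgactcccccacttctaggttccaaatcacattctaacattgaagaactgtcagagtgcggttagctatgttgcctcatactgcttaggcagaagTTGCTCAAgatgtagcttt
Retnlg, chr16:48872358-48872607, plus strand: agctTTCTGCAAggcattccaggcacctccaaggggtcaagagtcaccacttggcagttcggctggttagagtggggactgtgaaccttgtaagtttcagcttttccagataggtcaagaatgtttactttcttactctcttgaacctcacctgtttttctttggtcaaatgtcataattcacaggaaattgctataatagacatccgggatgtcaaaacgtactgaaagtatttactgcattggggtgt

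Of the 9 genes, 8 had a promoter window, Mmp9 being the exception. In the full 250 bases before the RefSeq start, 7 of these 8 held a match to the C/EBP letters, Camp being the one without, whereas 36.8% of 32851 promoters did. The narrower TTGCNNAA or its reverse complement TTNNGCAA, a part of the first pattern, stood before Ltf, Lcn2, Ngp, Mmp8 and Retnlg, that is 5 of 8, against 9.6% of all promoters. For PU.1, GAGGAAGT on either strand was found before Mmp8 only and in 2.4% of promoters, and its first letters GAGGAA before 4 of 8 and in 23.3%. Chil3 carried its 3 matches within the last 53 bases before the start, and Retnlg its single match between 246 and 239 bases upstream. These are matches of letters, and no binding was measured. The windows of Chil3 and Chil4 were 91.0% identical over 221 aligned positions, and their longest transcripts 94.4% over 1538. Of the stretches of 50 bases in the longest Chil3 transcript, 29.4% also occur in Chil4, so reads could be split between both genes in counting and the Chil3 level is uncertain to that extent. Chil4 itself was listed at 0 in all Ctrl and L_IR libraries and at no more than 0.21 FPKM in IR. For Cd177, 5.8% of such stretches occur in Gm4763, and for the other 7 genes none did.

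FPKM (a level per gene length and library size) sum to between 344338 and 405123 per library, and 11467 to 12167 gene rows reached 1 FPKM. FPKM carry no read counts, so the depth is unknown and no counting intervals are given. Ctrl replicate 1 stood apart, with 44.1% of rows listed at 0 against 24.7% to 27.3% elsewhere. In addition, the heart transcript Nppa reached 51.2 to 63.9 FPKM in the IR libraries and Ctrl replicates 2 and 3, and at most 0.26 in the other 7, so whatever it marks cannot be told apart from the contrasts of IR with Ab_IR and L_IR except through the Ctrl libraries. Among 12 markers of stem and progenitor cells, Mecom, Slamf1, Hoxb5 and Fgd5 stayed under 1 FPKM in all 12 libraries. Kit stood at 21.3 to 25.5 FPKM in Ctrl and 6.70 to 7.0 in IR, while Ly6a, which encodes the gating antigen Sca-1, stood at 25.9 to 41.1 in Ctrl and 53.7 to 61.5 in IR. Itgam, which encodes the Mac-1 antigen gated against, stood at 30.6 to 34.6 FPKM in Ctrl. The primary granule gene Mpo stood at 2859 to 3432 FPKM in Ctrl. Several defining HSC markers were thus near 0 and myeloid transcripts plentiful in cells labelled HSC. In bulk RNA, fewer cells of a type and less RNA per cell cannot be told apart.

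All 9 genes were at 1 FPKM or more in every library, the lowest value being 1.99 FPKM for Mmp8 in an L_IR library, so none entered through its high group alone. Together they took 0.501% to 0.534% of all FPKM in Ctrl, 0.952% to 0.977% for IR, 0.510% to 0.555% for Ab_IR and 0.152% to 0.157% for L_IR. IR was the highest group for 7 of the 9 genes and L_IR the lowest for 8. Camp and Retnlg were highest in Ab_IR, and Retnlg was lowest in IR. The libraries of a group lay close together, with a coefficient of variation of at most 3.66% for IR, 8.57% for Ab_IR and 6.78% for L_IR, but up to 29.1% in Ctrl, where Camp spread most.

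**Figure D1:**
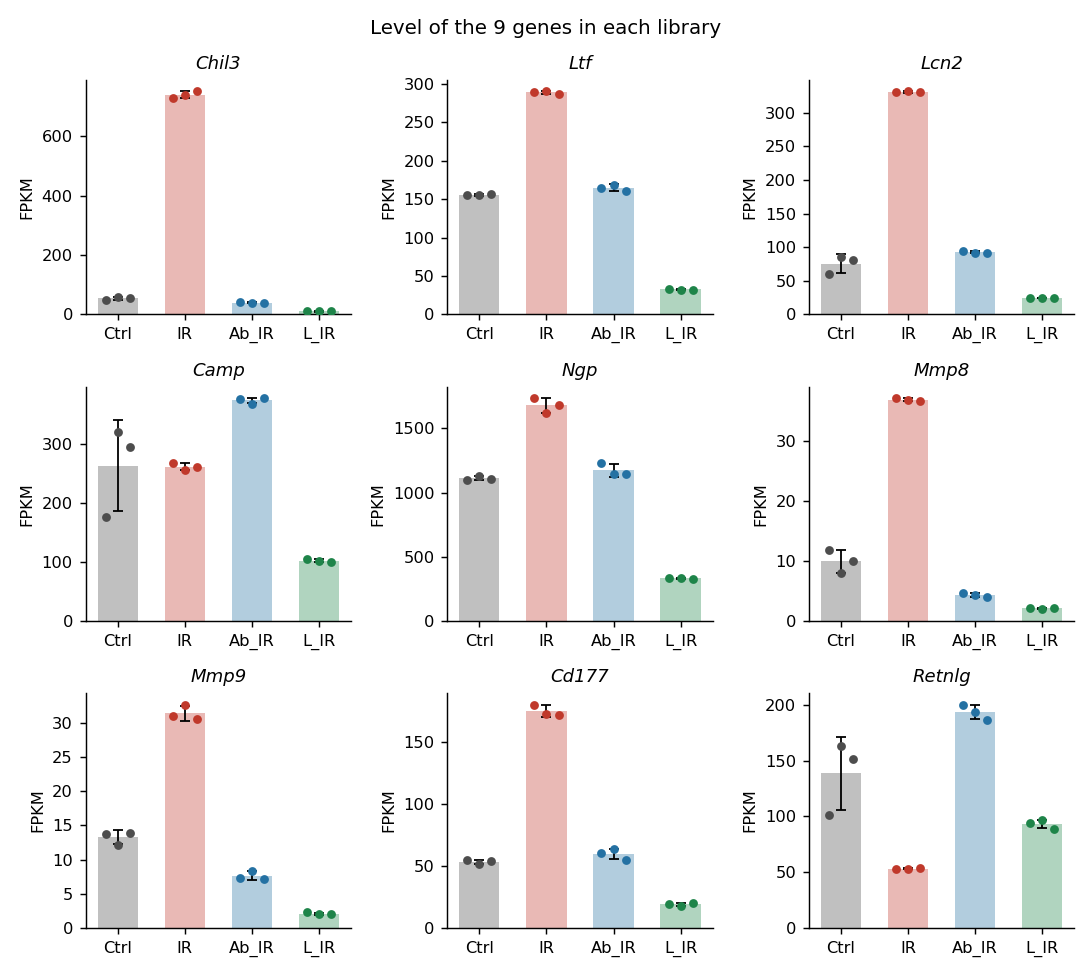
FPKM of each gene (vertical axes, each from 0) in the 3 libraries of each group, with bars for the mean and error bars for the SD. Chil3, Ltf, Lcn2, Ngp, Mmp8, Mmp9 and Cd177 peak in IR, Camp and Retnlg peak in Ab_IR, and L_IR is the lowest group for all but Retnlg.

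Chil3 encodes Ym1, a secreted chitinase-like lectin without chitinase activity. The gene (ENSMUSG00000040809) lies at chr3:106147554-106167564 on the minus strand of GRCm38. It stood at 48.7, 59.01 and 55.99 FPKM in the Ctrl libraries, 729.7, 738 and 753 with IR, 40.4, 39.7 and 38.5 with Ab_IR and 9.49, 10.6 and 9.86 with L_IR. The IR libraries lay far above all others and no group overlapped another. The IR mean of 740.2 ± 11.8 FPKM (SD, n = 3) was 13.6 times that of Ctrl, 18.7 times that of Ab_IR and 74.1 times that of L_IR, the widest range among the 9 genes. On the log2(FPKM + 1) scale, which understates changes of low levels, IR minus Ctrl was 3.74, Ab_IR minus IR -4.19 and L_IR minus IR -6.08.

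Ltf and Lcn2 encode the iron-related proteins of the secondary granule. Lactoferrin, the product of Ltf (ENSMUSG00000032496, chr9:111019271-111042767, plus strand), binds free iron. Ltf stood at 155, 155 and 157 FPKM in the Ctrl libraries, 290.1, 290.4 and 287 with IR, 165, 169 and 160.0 with Ab_IR and 33.2, 31.7 and 32.2 with L_IR. IR was the highest group, Ctrl and Ab_IR lay side by side without overlap, and L_IR was the lowest. The Ltf mean in IR was 1.86 times that in Ctrl, and the Ctrl mean was 4.81 times that in L_IR.

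Lipocalin 2, the product of Lcn2 (ENSMUSG00000026822, chr2:32384633-32388252, minus strand), captures the siderophores with which bacteria take up iron. Lcn2 stood at 59.9, 85.8 and 80.9 FPKM in the Ctrl libraries, 331, 333 and 330.5 with IR, 93.9, 90.98 and 91.7 with Ab_IR and 23.9, 24.5 and 23.9 with L_IR. The groups had the same order as for Ltf, and Ctrl replicate 1 lay below the other Ctrl libraries. The IR mean was 4.39 times that of Ctrl, 3.60 times that of Ab_IR and 13.8 times that of L_IR. Against Ctrl, Lcn2 differed by 2.14 and Ltf by 0.89 on the log2 scale in IR, and by -1.59 and -2.23 in L_IR, so the gene with the greater excess in IR had the smaller deficit in L_IR.

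Camp and Ngp encode related proteins of the cathelicidin family. Camp (ENSMUSG00000038357, chr9:109847379-109849617, minus strand) gives cathelicidin, which is cut to an antimicrobial peptide. Camp stood at 176, 321 and 295 FPKM in the Ctrl libraries, 269, 257 and 261 with IR, 376, 369 and 378 with Ab_IR and 105, 103 and 100.2 with L_IR. The Ab_IR libraries were the highest, the L_IR libraries the lowest, and the IR libraries fell between the values of Ctrl replicate 1 and the other Ctrl libraries. IR minus Ctrl was 0.04 ± 0.22 (SE, adjusted p = 0.908), a difference within the spread of Ctrl, and its sign turned under quantile normalization and without Ctrl replicate 1 (-0.23, adjusted p = 0.0086). Camp was higher in Ab_IR than in IR by 0.51 ± 0.033 (SE, adjusted p = 9.93e-06), a change below the 2-fold limit used for calls, and lower in L_IR, with L_IR minus IR at -1.35 ± 0.028 (SE, adjusted p = 1.08e-07).

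Ngp (ENSMUSG00000032484, chr9:110419747-110423012, plus strand), the neutrophilic granule protein, was the most abundant of the 9 genes per length. Ngp stood at 1102, 1132 and 1103 FPKM in the Ctrl libraries, 1739, 1619 and 1682 with IR, 1234, 1147 and 1146 with Ab_IR and 333, 337 and 326 with L_IR. IR was highest, Ctrl and Ab_IR were almost level with the lowest Ab_IR library just above the highest Ctrl library, and L_IR was clearly lowest. IR exceeded Ctrl by 0.59 ± 0.076 (SE, adjusted p = 0.00152) and Ab_IR by less than 2-fold, -0.51 ± 0.047 (SE, adjusted p = 5.47e-05) for Ab_IR minus IR. In L_IR the Ngp level was 5.06 times lower than in IR and 3.35 times lower than in Ctrl.

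Mmp8 and Mmp9 encode metalloproteinases that cleave matrix. Mmp8 (ENSMUSG00000005800, chr9:7558456-7568485, plus strand) gives the neutrophil collagenase. Mmp8 stood at 11.9, 7.95 and 10.01 FPKM in the Ctrl libraries, 37.3, 36.9 and 36.7 with IR, 4.74, 4.34 and 4.06 with Ab_IR and 2.17, 1.99 and 2.23 with L_IR. The 4 groups were apart from each other, with IR above Ctrl, Ctrl above Ab_IR and Ab_IR above L_IR. Mmp8 rose in IR by 1.81 ± 0.13 (SE, adjusted p = 0.000164) against Ctrl, fell in Ab_IR by 2.82 and in L_IR by 3.60 on the log2 scale against IR, with adjusted p = 4.76e-08 and 7.03e-09.

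Mmp9 (ENSMUSG00000017737, chr2:164940780-164955850, plus strand) gives gelatinase B, the marker of gelatinase granules. Mmp9 stood at 13.8, 12.1 and 13.9 FPKM in the Ctrl libraries, 30.9, 32.7 and 30.5 with IR, 7.29, 8.38 and 7.21 with Ab_IR and 2.26, 2.0 and 2.03 with L_IR. It had the same order of groups as Mmp8, again without overlap. Mmp9 rose in IR by 1.18 ± 0.074 (SE, adjusted p = 8.99e-05) against Ctrl. Its level in L_IR was 14.96 times lower than in IR and 6.33 times lower than in Ctrl.

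Cd177 (ENSMUSG00000052212, chr7:24743983-24760311, minus strand) encodes a surface glycoprotein of neutrophils that binds PECAM1 and is stored in secondary granules. Cd177 stood at 54.8, 51.7 and 54.03 FPKM in the Ctrl libraries, 180.2, 172 and 172 with IR, 60.2, 63.4 and 55.1 with Ab_IR and 19.2, 17.99 and 20.04 with L_IR. IR was the highest group, Ctrl and Ab_IR came next with 54.77 FPKM in the highest Ctrl library and 55.05 in the lowest of Ab_IR, and L_IR was the lowest. Cd177 rose in IR by 1.69 ± 0.058 (SE, adjusted p = 1.31e-05) against Ctrl, and its IR mean was 2.94 times that of Ab_IR and 9.17 times that of L_IR.

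Retnlg (ENSMUSG00000022651, chr16:48872621-48874496, plus strand) encodes a secreted resistin-like protein made by neutrophils. Retnlg stood at 101, 164 and 151 FPKM in the Ctrl libraries, 52.9, 52.6 and 53.4 with IR, 200.2, 194 and 187 with Ab_IR and 94.1, 96.7 and 88.95 with L_IR. Here the IR libraries were the lowest and the Ab_IR libraries the highest, unlike any of the other 8 genes, none of which was lowest in IR. Retnlg fell in IR by 1.34 ± 0.18 (SE) on the log2 scale against Ctrl (adjusted p = 0.00161), and by 1.55 without Ctrl replicate 1. It rose in Ab_IR by 1.85 ± 0.036 (SE, adjusted p = 5.39e-08) against IR. Its L_IR minus IR difference of 0.80 ± 0.033 (SE, adjusted p = 1.98e-06) stayed under the 2-fold limit.

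The first question the design poses is what radiation alone did. A gene was called where its Benjamini-Hochberg adjusted p from limma was under 0.05 and its absolute log2 fold change above 1. Of the 6 tested genes, 4 were called between IR and Ctrl, against 7.60% of the 12072 genes tested. Mmp8, Mmp9 and Cd177 were higher (background 3.03%) and Retnlg was lower (4.57%). Without the fold limit 5 of 6 passed, where 43.1% of all genes did, Ngp being added. Of the 6, 4 lay above Ctrl without overlap (25.2% of all genes), 1 lay below (32.8%) and Camp overlapped. The median difference of the 6 tested genes was 0.89, and that of all genes -0.05. All 4 calls stood without Ctrl replicate 1, that is among libraries with high Nppa only, at 1.93 for Mmp8, 1.21 for Mmp9, 1.71 for Cd177 and -1.55 for Retnlg. Here and in the other comparisons the background is given for scale, and the 9 genes were listed with earlier results of these libraries known.

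**Figure D2:**
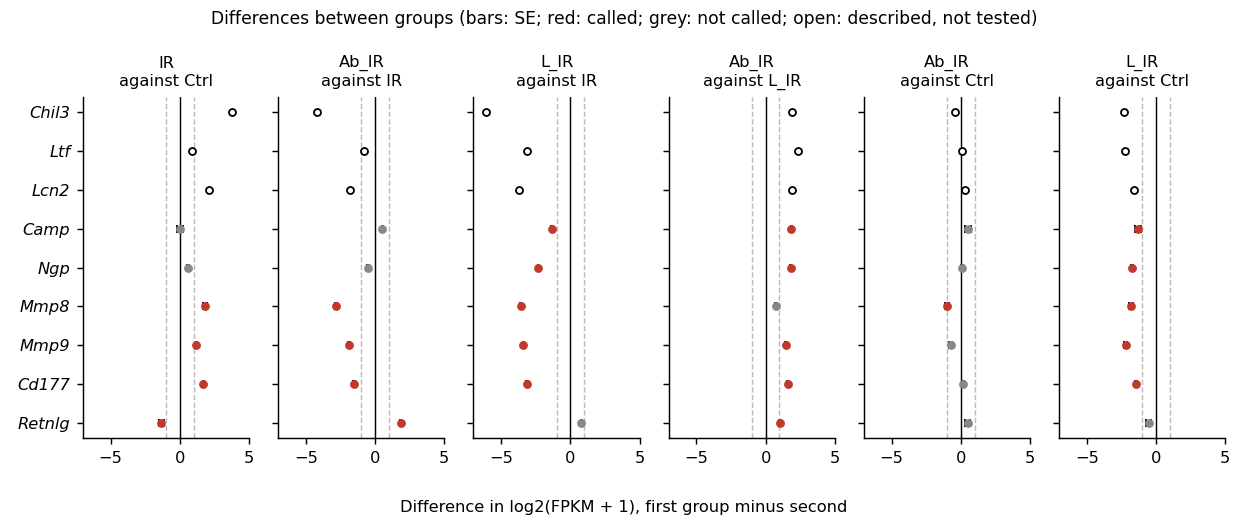
Difference of each gene in log2(FPKM + 1) for 6 comparisons, first group minus second, with SE bars for the 6 tested genes, red for called, grey for not called and open circles for Chil3, Ltf and Lcn2, which were not tested. Dashed lines mark 2-fold; differences of IR to Ctrl lie mostly right of 0 and those of L_IR to IR left of 0, with Retnlg on the other side in both.

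Ab_IR was then compared with IR. Mmp8, Mmp9 and Cd177 were lower (background 2.46%) and Retnlg was higher (5.11%), so 4 of the 6 tested genes were called, against 7.57% of 12067 genes. All 6 passed without the fold limit, as did 68.7% of all genes. Without overlap between groups, 4 of the 6 genes lay lower in Ab_IR (31.6% of all genes) and 2 higher (41.4%), Camp and Retnlg. Mmp9 fell by 1.91 ± 0.061 (SE) on the log2 scale, with adjusted p = 4.35e-07, and Cd177 by 1.54 ± 0.054 (SE), with adjusted p = 6.68e-07. All IR libraries had Nppa above 10 FPKM and no Ab_IR library did. With that split as a term in a fit over all 12 libraries, where it rests on Ctrl replicate 1 against Ctrl replicates 2 and 3, the 4 calls stood and Camp was also called (1.31, adjusted p = 1.64e-07). In that fit Mmp8 was at -3.20 and Retnlg at 2.48, and of the untested genes Chil3 was at -3.96, Ltf at -0.80 and Lcn2 at -1.37.

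L_IR was compared with IR in the same way. Camp, Ngp, Mmp8, Mmp9 and Cd177 were lower (background 2.13%) and none was called higher (4.09%), so 5 of 6 were called, against 6.22% of 12163 genes. Without the fold limit all 6 passed, and 66.8% of all genes. Of the 6, 5 lay lower in L_IR without overlap (28.2% of all genes) and Retnlg higher (43.1%). Ngp fell by 2.33 ± 0.032 (SE) on the log2 scale, with adjusted p = 2.37e-08, and Mmp9 by 3.39 and Cd177 by 3.13, both with the same adjusted p. The median difference of the 6 genes was -2.73, and that of all genes 0.07. With the Nppa split as a term, Camp dropped to -0.55 (adjusted p = 7.58e-05) and was no longer called, while Retnlg reached 1.43 (adjusted p = 3.27e-07) and was. Mmp8 was at -3.98 and Ngp at -2.31 there, and Chil3 at -5.84.

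The contrast of Ab_IR with L_IR, both irradiated and both under 10 FPKM of Nppa, had few calls. There 0.533% of 12194 genes were called, 65 in number, and 5 of the 6 tested genes were among them. Camp, Ngp, Mmp9, Cd177 and Retnlg were all higher in Ab_IR (background 0.295%) and none was lower (0.238%). All 6 passed without the fold limit, as did 38.0% of all genes, and all 6 lay above L_IR without overlap (25.2% higher and 26.7% lower among all genes). Camp rose by 1.86 ± 0.034 (SE, adjusted p = 4.02e-07) and Ngp by 1.82 ± 0.042 (SE, adjusted p = 1.34e-06). Cd177 rose by 1.59 ± 0.062 (SE, adjusted p = 1.4e-05) and Mmp9 by 1.48 ± 0.068 (SE, adjusted p = 2.14e-05), while Mmp8, at levels of a few FPKM, differed by 0.78 ± 0.064 (SE, adjusted p = 0.000209) and passed the 2-fold limit only with the smaller pseudocount of 0.1. Retnlg, which ran opposite to most of the others in the contrasts with IR, here differed in the same direction by 1.05 ± 0.045 (SE, adjusted p = 1.98e-05). Chil3, Ltf and Lcn2 were 3.96, 5.09 and 3.83 times as high in Ab_IR as in L_IR.

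The last comparisons set the pair of prefixed groups against Ctrl. Between Ab_IR and Ctrl only Mmp8 was called, lower by 1.01 ± 0.14 (SE) on the log2 scale with adjusted p = 0.0188, where 0.923% of 12134 genes were called, 0.692% higher and 0.231% lower. That call was lost without any 1 of the Ab_IR libraries or without Ctrl replicate 1 or 3, and these 5 fits gave -1.06 to -0.89 with adjusted p of 0.00444 to 0.122. Mmp9 was lower by less than 2-fold, -0.73 ± 0.09 (SE, adjusted p = 0.0131), and so 2 of 6 passed without the fold limit, against 2.10% of all genes. The other 4 did not pass, Camp at 0.55 (adjusted p = 0.225), Ngp at 0.08 (adjusted p = 0.584), Cd177 at 0.15 (adjusted p = 0.304) and Retnlg at 0.51 (adjusted p = 0.192). Without Ctrl replicate 1, Camp was at 0.28 (adjusted p = 0.0499) and Retnlg at 0.30 (adjusted p = 0.0484), both past the p limit and under the fold limit. Even so none of the 6 overlapped, 4 lying above Ctrl and 2 below, where 16.0% and 17.6% of all genes did. The sign of the Ngp difference, and of the untested Ltf difference of 0.08, turned under quantile normalization. With the Nppa split as a term, the difference is that of Ab_IR to Ctrl replicate 1 alone. There Camp was at 1.08 and Mmp8 at -1.26, and no test is given.

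Between L_IR and Ctrl, Camp, Ngp, Mmp8, Mmp9 and Cd177 were called lower, 5 of 6 genes, where 2.65% of 12251 genes were called, 2.03% higher and 0.620% lower. The same number passed without the fold limit, against 8.84% of all genes. All 6 lay below Ctrl without overlap, and none above, where 18.4% and 17.6% of all genes did. Mmp9 fell by 2.20 ± 0.081 (SE, adjusted p = 7.11e-05) and Ngp by 1.74 ± 0.068 (SE, adjusted p = 7.25e-05). The Camp difference of -1.31 ± 0.22 (SE, adjusted p = 0.0165) lost its call without any 1 of the L_IR libraries or without Ctrl replicate 2 or 3, at adjusted p of 0.051 to 0.0825. Retnlg differed by -0.54 ± 0.18 (SE, adjusted p = 0.124), and by -0.75 (adjusted p = 0.000377) without Ctrl replicate 1. With the Nppa split as a term, again a difference to Ctrl replicate 1 alone, Camp was at -0.78 and Retnlg at -0.12.

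The genes did not move in proportion. Set against Ngp in the same library, which removes a factor common to both genes, Chil3 stood at 4.90% ± 0.43 (SD, n = 3) of the Ngp level in Ctrl, 44.1% ± 1.90 for IR, 3.37% ± 0.091 for Ab_IR and 3.01% ± 0.15 for L_IR. The lowest IR library, at 42.0%, lay far above the highest of the other 9, at 5.21%. Retnlg ran the other way, at 12.5% ± 2.84 in Ctrl, 3.16% ± 0.11 for IR, 16.5% ± 0.38 for Ab_IR and 28.1% ± 0.74 for L_IR, so that L_IR had the highest Retnlg per Ngp though not the highest Retnlg. Camp was at 15.6% ± 0.22 in IR and at 31.9% ± 1.25 in Ab_IR and 30.9% ± 0.49 in L_IR, with Ctrl spread from 16.01% to 28.3%. Ltf stood at 13.98% ± 0.26 in Ctrl, 17.2% ± 0.64 for IR, 14.02% ± 0.67 for Ab_IR and 9.74% ± 0.30 for L_IR. Cd177 and Lcn2 also had their highest share in IR, at 10.4% and 19.8% against at most 6.14% and 7.997% in any library of the other groups. Mmp8 stood at 0.372% in Ab_IR, below the 0.642% in L_IR, whereas Mmp9 stood at 0.650% and 0.631%. Of the shapes over the 12 libraries, compared by the root mean square difference of centered log2 values, Lcn2 and Cd177 were nearest (0.26), then Ltf and Ngp (0.29), Mmp9 and Cd177 (0.34) and Mmp8 and Mmp9 (0.37), and Chil3 and Retnlg were farthest apart (2.68).

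**Figure D3:**
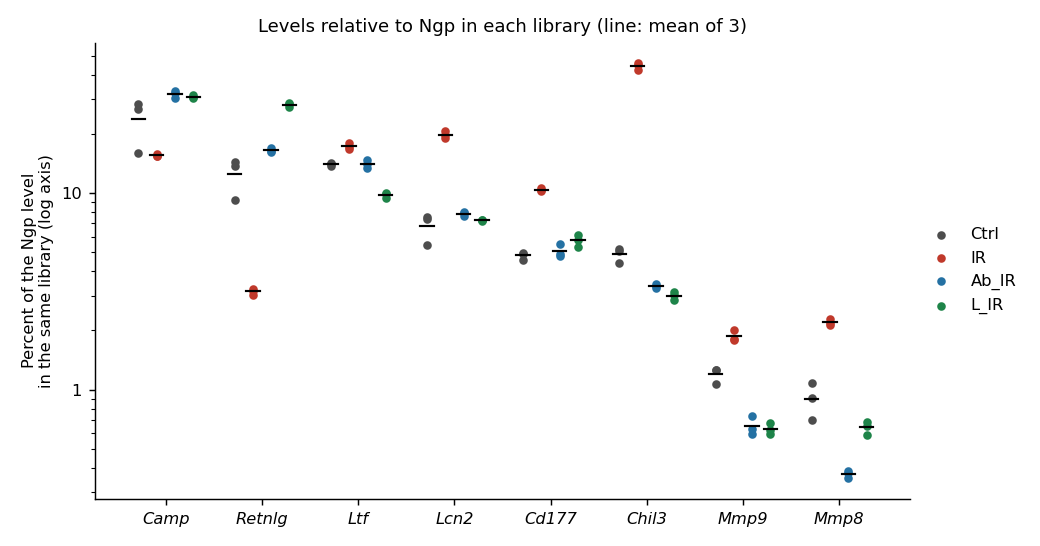
Level of 8 genes as a percent of Ngp in the same library (log axis), one point per library and a line at the mean of 3. IR stands above the other groups for Chil3, Ltf, Lcn2, Cd177, Mmp9 and Mmp8, and below them for Retnlg and, narrowly, Camp.

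Genes outside the 9 were taken from lists of neutrophil biology, in which the numbers that rose or fell count called genes. Of 23 further genes of specific and gelatinase granules that were tested, 9 rose and 0 fell between IR and Ctrl, with a median difference of 0.78 against -0.05 over all genes. Pglyrp1, Mmp25 and Wfdc21 lost their calls without Ctrl replicate 1. Ifitm6, of the interferon-induced transmembrane family, rose by 2.002 ± 0.062 (SE, adjusted p = 8.69e-06), Lrg1, a secreted leucine-rich glycoprotein, by 1.87 ± 0.11 (SE, adjusted p = 7.07e-05) and the hemoglobin-binding Hp by 1.38 ± 0.09 (SE, adjusted p = 0.000106). Stfa2l1, a stefin of neutrophils, rose by 2.99 ± 0.39 (SE, adjusted p = 0.00153), with 0 to 1.71 FPKM in Ctrl and 13.2 to 15.8 in IR. Between Ab_IR and IR 7 of the 23 fell and 0 rose (median -0.72), and between L_IR and IR 14 fell and 0 rose (median -1.12), with Ifitm6 at -1.94 and -3.69. In Ab_IR against L_IR 4 of 22 were called higher, Ifitm6, Orm1, Lrg1 and Olfm4, by 1.75, 1.35, 1.23 and 1.19, while 20 of the 22 had a difference above 0. In L_IR against Ctrl 5 of 22 fell, and in Ab_IR against Ctrl limma called 0 of 23, with 6 at an unadjusted p under 0.05.

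Of 9 primary granule genes only Ctsc, the cathepsin that activates serine proteases, rose in IR against Ctrl, by 1.002 ± 0.065 (SE, adjusted p = 0.000107), at the very limit of the call and not called without IR replicate 2 or Ctrl replicate 3, and the list median was 0.11. Mpo was level, at 3143, 3179, 3139 and 3154 FPKM on average in Ctrl, IR, Ab_IR and L_IR. In Ab_IR against IR Cd63, a tetraspanin of primary granule membranes, rose by 1.12 ± 0.045 (SE, adjusted p = 1.1e-06), and in L_IR against IR limma called 0 of 9, with 8 at an unadjusted p under 0.05 and a median of -0.50. It also called 0 of 9 in Ab_IR against L_IR, Ab_IR against Ctrl and L_IR against Ctrl, where 7, 1 and 5 had an unadjusted p under 0.05.

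Among 11 transcription factors of granulocytes, 3 rose and 2 fell in IR against Ctrl. Cebpb rose by 1.39 ± 0.27 (SE, adjusted p = 0.00794), Cebpd by 1.07 ± 0.15 (SE, adjusted p = 0.00244) and Spi1, which encodes PU.1, by 1.03 ± 0.1 (SE, adjusted p = 0.000501). Levels of Cebpb were low, at 0.15 to 1.12 FPKM in Ctrl and 2.99 to 4.64 in IR. Cebpd dropped to 0.89 without Ctrl replicate 1 and Spi1 to 0.94 without Ctrl replicate 2, each then under the fold limit. Irf8 and Klf4, both factors of monocyte fate, fell by 1.60 and 1.08 (adjusted p = 6.2e-05 and 0.000218). Irf8 rose again in Ab_IR (1.89) and in L_IR (1.97) against IR, with adjusted p = 6.38e-08 and 2.81e-08. Cebpe, on which secondary granule genes depend, stood at 72.9, 124, 89.95 and 61.6 FPKM on average in the same 4 groups, and its difference of 0.79 ± 0.19 (SE, adjusted p = 0.0178) between IR and Ctrl and -0.997 ± 0.032 (SE, adjusted p = 6.64e-07) between L_IR and IR stayed within the 2-fold limit. In Ab_IR against IR 2 of the 11 rose, Irf8 and Klf4 (1.001, called in 2 of 6 fits that leave out a library), and in L_IR against IR Irf8 rose and Cebpd fell by 1.11 (adjusted p = 5.42e-05). In Ab_IR against L_IR, Ab_IR against Ctrl and L_IR against Ctrl limma called 0 of 11, with 7, 6 and 6 at an unadjusted p under 0.05.

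Of 17 receptors and adhesion molecules of neutrophils, 6 rose and 0 fell in IR against Ctrl, with a median of 0.68. Among the 6, Fpr1 kept its call in 3 of 6 fits that leave out a library, and Trem3 lost its call without Ctrl replicate 1. Il1r2, the decoy receptor for interleukin-1, rose by 3.49 ± 0.1 (SE, adjusted p = 7.26e-06), the complement receptor C5ar1 by 1.89 ± 0.078 (SE, adjusted p = 2.53e-05), the chemokine receptor Cxcr2 by 1.68 ± 0.088 (SE, adjusted p = 5.03e-05) and the cytokine receptor chain Csf2rb by 1.62 ± 0.079 (SE, adjusted p = 3.84e-05). In Ab_IR against IR 6 fell and 1 rose, and in L_IR against IR 9 fell and 0 rose, with Il1r2 at -3.67 and -4.10. Ly6g and Fpr2 were called higher in Ab_IR than in L_IR, by 1.73 ± 0.16 (SE, adjusted p = 0.000343) and 1.19 ± 0.19 (SE, adjusted p = 0.00315), the latter not called without L_IR replicate 3. In L_IR against Ctrl 3 were called lower, Ly6g, Fpr2 and Cxcr2, among 11 of 17 with a difference below 0, of which Ly6g kept its call in 1, Fpr2 in 3 and Cxcr2 in 4 of 6 fits that leave out a library, and in Ab_IR against Ctrl limma called 0 of 17, with 4 at an unadjusted p under 0.05.

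**Figure D4:**
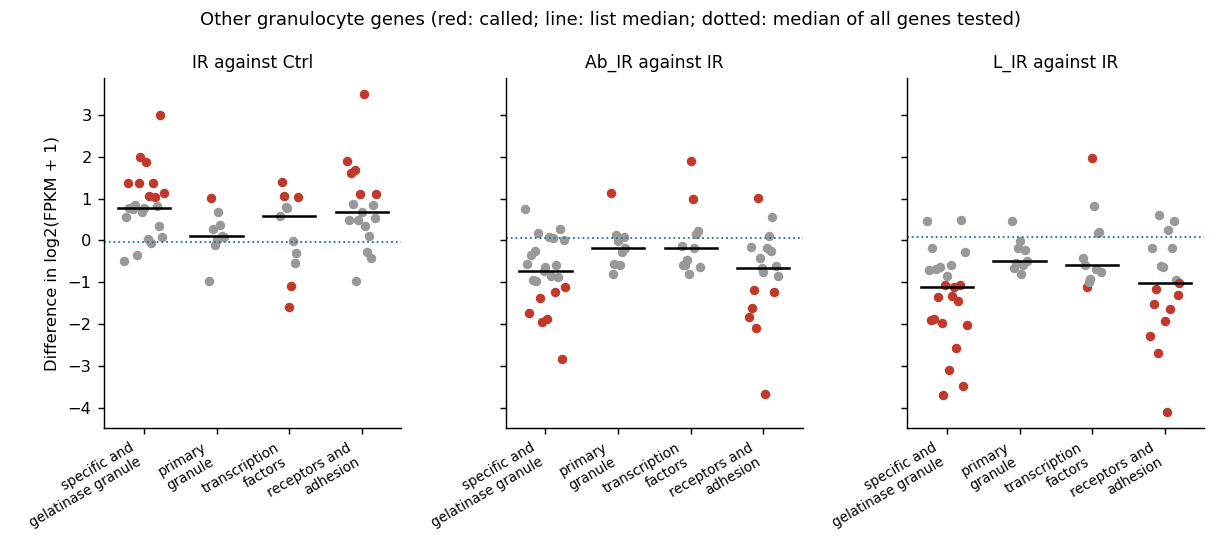
Difference in log2(FPKM + 1) of the genes of 4 lists in 3 comparisons, red for called and grey for not called, with a line at the list median and a dotted line at the median of all genes tested. The medians of the specific granule genes and receptors lie above the dotted line in IR against Ctrl and below it in the other comparisons, and those of the primary granule genes lie closer to it.

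Partners and relatives of the 9 proteins were tested as well. Of 6 tested receptors, partners and inhibitors, only Tfrc, the transferrin receptor, was called in IR against Ctrl, lower by 1.02 (adjusted p = 0.000263) and not without Ctrl replicate 1 or 2. Of 7 tested in L_IR against Ctrl only Timp1, an inhibitor of metalloproteinases, was called, higher by 1.17 ± 0.15 (SE, adjusted p = 0.00518) at a level of 1.62 FPKM. In Ctrl, Timp1 stood at 0 to 0.37 FPKM, so it reached the filter only through the L_IR libraries where it is high. The Lcn2 receptor Slc22a17 was under 1 FPKM in all libraries. In the other 4 comparisons limma called 0 of the 6 or 7 tested, with 1 to 5 at an unadjusted p under 0.05. Of the chitinase-like family, 4 genes were tested, and Chil1 alone was called, lower in L_IR than in IR by 1.87 (adjusted p = 7.78e-08) and than in Ctrl by 1.11 (adjusted p = 0.000236). The other resistin genes, Retn, Retnla and Retnlb, were each under 1 FPKM in all libraries and could not be tested. Of 9 genes of cytokine signals that can induce Lcn2, Saa3 rose by 2.73 ± 0.36 (SE, adjusted p = 0.00164) and Il6 fell by 1.76 (adjusted p = 0.000396) in IR against Ctrl. Levels of Saa3 were 0.22 to 2.27 FPKM in Ctrl and 9.26 to 12.8 in IR. In Ab_IR against IR Il6 and Nfkbia rose and Stat3 fell, by 1.78, 1.003 and -1.01, the last 2 called in 3 of 6 fits that leave out a library, in L_IR against IR Il6 rose by 1.58, and in L_IR against Ctrl Saa3 rose by 2.49.

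Summed marker levels of marrow cells were set beside the 9 genes, and only those of mature neutrophils had the same highest and lowest groups. The summed level of 10 mature neutrophil markers, 8 of which also stand in the lists above, was 1506 to 2764 FPKM in Ctrl, 5401 to 5915 for IR, 2059 to 2382 for Ab_IR and 967 to 1035 for L_IR, so it had its highest and lowest groups in common with the summed 9 genes. Of these markers 6 rose in IR against Ctrl, 6 fell in Ab_IR against IR and 10 fell in L_IR against IR. S100a8 and S100a9, the calgranulins, stood at 1567 to 1793 and 3573 to 3864 FPKM in IR against 307 to 357 and 579 to 599 in L_IR. Ly6g, which encodes the defining Gr-1 antigen, was at 4.77 to 7.33 FPKM in IR and 3.88 to 11.1 in Ctrl and did not pass the test, with IR minus Ctrl at -0.29 (adjusted p = 0.551). The summed monocyte markers were lowest in IR, at 181 to 187 FPKM against 303 to 325 in Ctrl, 261 to 269 in Ab_IR and 276 to 283 in L_IR, and 3 of 8 fell in IR against Ctrl. Of these, Csf1r lost its call without IR replicate 1 or Ctrl replicate 3. Cx3cr1, under 1 FPKM in IR, lost it without IR replicate 2 and could not be tested without a Ctrl library. Ly6c2 made up much of the Ctrl sum, with means of 158 FPKM in Ctrl and 35.1 in IR, whereas Fn1 was highest in IR (23.8 FPKM against 15.4 in Ctrl) and was called lower in L_IR against IR, though not without L_IR replicate 2. The summed macrophage markers were 64.6 to 70.7 FPKM in IR and 87.0 to 104 in the other groups, with Marco under 1 FPKM in all libraries, and 2 of 9 fell in IR against Ctrl. Mrc1 was highest in IR, at a mean of 5.84 FPKM against 3.18 in Ctrl. Erythroid markers fell in IR for 10 of 10 genes, from a sum of 3645 to 4193 FPKM in Ctrl to 574 to 584, and stood at 3569 to 3732 in Ab_IR and 1769 to 1824 in L_IR. The summed plasma cell markers were lowest in Ctrl, at 632 to 744 FPKM, and highest in L_IR, at 1466 to 1491, most of it Jchain, whereas Xbp1 was highest in IR, at a mean of 200.4 FPKM against 108 in L_IR. Stem and progenitor markers summed to 95.6 to 102 FPKM in Ctrl, 70.5 to 77.6 for IR, 86.3 to 94.0 for Ab_IR and 92.9 to 94.1 for L_IR, and 4 of 7 tested fell in IR against Ctrl, with a list median of -1.57. In IR most of that sum was Ly6a, while Cd34 and Flt3, both gated against, averaged 20.01 and 10.5 FPKM in Ctrl and 3.78 and 1.08 in IR. In Ab_IR against Ctrl limma called none of the markers of any of these 7 cell types, with 2 of 10 neutrophil, 3 of 8 monocyte, 5 of 9 macrophage, 5 of 10 erythroid, 6 of 7 plasma cell, 4 of 7 stem and progenitor and 1 of 8 eosinophil markers at an unadjusted p under 0.05. The part of cell composition in the differences of the 9 genes was not tested.

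**Figure D5:**
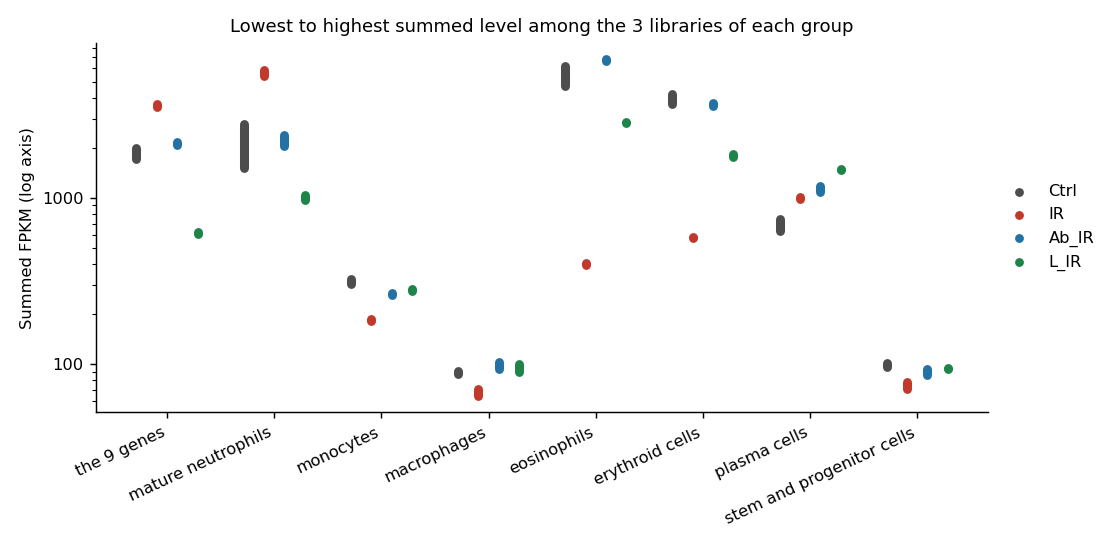
Summed FPKM (log axis) of the 9 genes and of 7 marker lists, each bar running from the lowest to the highest of the 3 libraries of a group. The 9 genes and the mature neutrophil markers share their highest group, IR, and their lowest, L_IR, while eosinophil, erythroid and monocyte markers are lowest in IR.

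Profiles over the 12 libraries were compared with those of the 3 genes chosen for their levels. Among 4543 candidates with a mean of at least 10 FPKM, the 9 genes themselves left out, Il1r2 and the lipase Lipg lay nearest to Chil3, both at a root mean square difference of 0.77 log2 units, followed by Ifitm6 at 0.96. Il1r2 averaged 2.92, 42.8, 2.44 and 1.55 FPKM in Ctrl, IR, Ab_IR and L_IR. Of these candidates, Ifitm6 was nearest to Lcn2, at 0.16, with Lrg1 at 0.34 and S100a9 at 0.40. S100a9 was nearest to Ltf, at 0.44, with Ifitm6 at 0.47 and Lrg1 at 0.52. These are descriptions over 12 libraries that share their groups, and carry no test.

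Camp, Ngp and Ltf lie on chromosome 9 within 1195 kb. Between them are 25 other protein-coding genes, 13 of which reached a mean of 1 FPKM in a group. The IR minus Ctrl differences of these 13 ran from -1.23 to 0.55 with a median of 0.18, and the L_IR minus IR differences from -0.65 to 0.48 with a median of -0.02. Hence none of these neighbors fell in L_IR as far as Camp, Ngp or Ltf, whose differences there were -1.35, -2.33 and -3.12.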

How the data were processed

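RNA of cells sorted from mouse bone marrow was measured in 12 libraries, 3 for each of 4 groups (Ctrl, IR, Ab_IR, L_IR) that the titles name. Per the labels, stranded mRNA libraries were made from column-purified RNA, and the submitters' processing notes name fastp, HISAT2, StringTie and GRCm38 (mm10), whereas the study's methods name RSEM, so the quantifier is not settled. Each deposited file lists genes and values of 1 library with 2 decimals and no unit. The authors' values were read as FPKM, because FPKM times gene length sum to a near-constant 913838 to 945611. Of the names, 96.7% matched GENCODE M21, used for positions and lengths only.

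Because FPKM are not counts, the count test of the study was not used. The moderated linear models of limma 3.58.1 (R 4.3.3, trend option) took log2(FPKM + 1) of the compared groups, keeping genes that reached 1 FPKM in 3 or more of those libraries, and p-values were adjusted by Benjamini-Hochberg over all genes tested. A call needed both an adjusted p below 0.05 and more than 1 log2 unit of change. Chil3, Ltf and Lcn2 were left out of tests and counts of calls. The 9 genes, the gene lists and the marker lists were chosen with earlier results of these data known. Named beside them are, from each list, the called genes of a comparison, at most 4 by size of change, and for Chil3, Ltf and Lcn2 the 3 genes outside the 9 with the nearest profile, without predicted and immunoglobulin genes. Kit, Ly6a, Cd34, Flt3, Mrc1, Itgam, Ly6c2, Fn1, Jchain, Xbp1, Mpo, Cebpe, Ly6g and Slc22a17, the genes named as under 1 FPKM and Chil4 were named for background after their values were seen. Pglyrp1, Mmp25, Wfdc21, Fpr1, Trem3, Il5ra and Siglecf were named because their calls were lost when a library was left out. Promoter sequences are RefSeq's, on GRCm38.p6. The scripts were tested on simulated data. Python 3.11.15 with matplotlib 3.10.9 made the figures, and Biopython 1.88 the alignments.

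Alternatives were a pseudocount of 0.1, no filter, a filter at a mean of 10 FPKM, quantile normalization, median scaling, limma without trend, 1 fit of all 12 libraries, the replicate number as a block, no fold limit, summed rows of a name, a term for Nppa above 10 FPKM, and leaving out each library.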

Additional observations from a re-analysis of the deposited data

How the results depend on the processing

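Of 909 values of the 9 genes under the alternatives, the 578 of the tested genes that kept their direction and call, and the 275 of Chil3, Ltf and Lcn2 that moved by less than the spread between libraries, made up most. Camp in IR against Ctrl turned from 0.04 to -0.11 (adjusted p = 0.586) under quantile normalization and to -0.23 (adjusted p = 0.0086) without Ctrl replicate 1. Its leave-one-out range was -0.23 to 0.20. The Nppa split as a term gave the same -0.23 (adjusted p = 0.00077), since in this comparison it takes out Ctrl replicate 1 and is no separate check. Under quantile normalization Ab_IR minus Ctrl also turned, to -0.15 for Ltf and to -0.16 for Ngp (adjusted p = 0.366). The number of the 6 tested genes called between Ab_IR and Ctrl was 1. It became 0 with no filter on low values, 2 with no fold limit and 0 to 1 when single libraries were left out. With the Nppa split as a term only Ctrl replicate 1 stands for Ctrl there, so no count is given. In the other 5 comparisons the count stayed within 1.5 times, at 4 of 6 in all leave-one-out fits of IR against Ctrl and Ab_IR against IR, 5 of 6 in those of L_IR against IR and Ab_IR against L_IR, and 4 to 5 in L_IR against Ctrl. The Nppa split was not entered for Ab_IR against L_IR, whose libraries are all under 10 FPKM of Nppa.

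The labels number the replicates alike in each group. The deviations of same-numbered libraries from their group means correlated at -0.282 to 0.244 and not above 0.1 for every number in any comparison. No pairing by number was thus seen, though such correlations cannot exclude it. With the replicate block, 4, 4, 5, 5, 1 and 5 of the 6 genes were called in the comparisons as ordered in the report (IR with Ctrl, Ab_IR with IR, L_IR with IR, Ab_IR with L_IR, Ab_IR with Ctrl, L_IR with Ctrl), the same counts as without it.

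For the genes of the lists only leaving out libraries is reported, and 27 of 199 calls were lost in at least 1 such fit. Counts over all genes moved more, and with them the background shares. With the Nppa split as a term they went from 914 to 1960 in Ab_IR against IR and from 756 to 1554 in L_IR against IR. A pseudocount of 0.1 gave 1512, 1294 and 165 for Ab_IR with IR, L_IR with IR and Ab_IR with L_IR, against 914, 756 and 65. A mean of at least 10 FPKM left 405, 367, 302, 42, 70 and 206 called, against 918, 914, 756, 65, 112 and 325, from fewer genes. For Ab_IR against Ctrl, 73 were called with no filter and 51 to 54 without an Ab_IR library. Where a cause is not named, it was not tested. Depth is unknown, so genes near 1 FPKM, such as Mmp8 and Mmp9 in L_IR, carry a counting error that cannot be given.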

Other observations

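Granule genes of eosinophils, the other granulocytes of the marrow, ran against most of the neutrophil genes in the contrasts with IR, but not between Ab_IR and L_IR or between L_IR and Ctrl. Prg2, the major basic protein, stood at 2673, 3822 and 3478 FPKM in the Ctrl libraries, 236, 238 and 246 with IR, 4142, 4229.7 and 4156 with Ab_IR and 1669, 1656 and 1676 with L_IR. The IR libraries were lowest, the Ab_IR libraries highest, and L_IR lay between IR and Ctrl, which is the group order of Retnlg. Of 8 eosinophil markers, 7 were called lower in IR against Ctrl, 8 higher in Ab_IR against IR and 7 higher in L_IR against IR, each with 0 called the other way. In L_IR against IR, Siglecf kept its call in 3 of 6 fits that leave out a library, and Il5ra in 1 of the 3 fits in which it could be tested. Ear2 and Ear1, ribonucleases of eosinophil granules, fell in IR, with differences of -4.004 ± 0.095 and -3.98 ± 0.12 (SE) on the log2 scale, with adjusted p = 5.11e-06 and 8.06e-06 by limma. Prg2 and Ear6 had differences of -3.77 and -3.73 (adjusted p = 1.75e-05 and 5.25e-06). In Ab_IR against L_IR 4 of the 8 were called higher and all 8 had a difference above 0, with Ear1 at 1.45 ± 0.047 (SE, adjusted p = 9.92e-06) and Prg2 at 1.32 ± 0.036 (SE, adjusted p = 2.98e-06). In Ab_IR against Ctrl limma called 0 of 8, with 1 at an unadjusted p under 0.05, and in L_IR against Ctrl 2 were called lower, Ear1 and Ear6 (Ear6 not without Ctrl replicate 2), with all 8 below 0 and 6 at an unadjusted p under 0.05. Their summed level was 4690 to 6210 FPKM in Ctrl, 397 to 408 for IR, 6686 to 6797 for Ab_IR and 2831 to 2863 for L_IR. The list was chosen with earlier results of these data known.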
